A study of Mus musculus with 2 samples.

Results

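The naive, stem and memory T genes are 9 genes chosen by name from the 32285 genes of the count matrices: the transcription regulators Tcf7, Lef1, Bach2, Klf2 and Id3, the receptors Il7r, Ccr7 and Slamf6, and Dapl1. They were followed in T cells from MC38 tumours, a mouse colon carcinoma line, of Ifnar1-SA and wild-type (WT) mice. The tumours were taken 14 days after inoculation with no treatment, and the immune cells inside them were profiled by droplet single-cell RNA sequencing (10x). The cell type label names CD8 T cells, although both libraries also held many other immune cells and tumour-like cells. There was 1 library per genotype, 2 in all, so no test was possible and no p-value is given. Ifnar1 encodes 1 of the chains that bind type I interferons; the labels do not say what SA stands for, or the strain, age and number of animals behind each library. Every interval is a 95% interval and covers counting error only, not the difference between animals.

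TCF-1 (the product of Tcf7) and LEF-1 are related DNA-binding proteins that keep naive and memory-like T cells able to self-renew, and their genes are turned down as a T cell becomes an effector. IL-7 receptor signalling keeps resting T cells alive, and CCR7 guides them to lymph nodes along CCL19 and CCL21. In tumours, a small pool of CD8 T cells that keeps TCF-1 and the surface receptor Ly108 (Slamf6) is known to feed the larger pool of effector and exhausted cells.

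The libraries held 62732220 UMIs (counted RNA molecules) in the Ifnar1-SA library and 55497066 in the WT library. Keeping barcodes that reached 1000 UMIs and 500 genes, with mitochondrial UMIs no higher than 10%, left 5001 Ifnar1-SA and 4058 WT cells with medians of 7176 and 8016.5 UMIs. The 2 libraries shared 7 barcodes. T cells, defined by at least 2 UMIs of Cd3e, Cd3g and Trac together, were 49.5% of kept cells in the Ifnar1-SA library and 52.9% in the WT library. T cells with at least 2 UMIs of Cd8a and Cd8b1 form the CD8 T gate, with 883 Ifnar1-SA and 1155 WT cells. T cells with a UMI of Foxp3, the regulatory T cell factor, form the Treg gate, with 751 and 457 cells. T cells with none of these 3 transcripts form the other T gate, with 805 and 473 cells. The CD8 and Treg gates shared 45 Ifnar1-SA and 31 WT cells, and 81 and 92 T cells with a single Cd8 UMI and no Foxp3 fell in no gate.

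The gates rest on Cd8a, Cd8b1 and Foxp3 themselves, so the levels of these 3 genes describe the gates and do not check them. Cd8a and Cd8b1 together had 958 CPM (UMIs of a gene scaled to a fixed total per gate and library) in Ifnar1-SA and 1069 CPM in WT CD8 T cells, against 55.2 and 53.8 CPM in Treg cells. Foxp3, Il2ra, Ikzf2 and Ctla4 together had 3032 CPM in Ifnar1-SA and 3165 CPM in WT Treg cells, and 536 and 580 CPM in CD8 T cells. A Cd4 UMI, which no gate used, was seen in 54.6% of Ifnar1-SA and 55.4% of WT Treg cells, against 4.08% and 3.72% of CD8 T cells. The other T gate is not a pure naive or helper population: a Cd4 UMI was seen in 46.0% of its Ifnar1-SA and 53.1% of its WT cells, and Ikzf2 stood at 617 and 631 CPM.

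Many droplets mixed T cell with macrophage transcripts, and more so in the Ifnar1-SA library. Droplets with at least 20 UMIs of 6 macrophage genes (C1qa, C1qb, C1qc, Lyz2, Csf1r and Apoe, all detected) were 20.6% of Ifnar1-SA and 11.6% of WT CD8 T cells, 33.2% and 21.01% of Treg cells, and 42.2% and 23.5% of other T cells. The 6 genes summed to 11036 CPM in Ifnar1-SA and 7938 CPM in WT CD8 T cells, to 15511 and 11017 CPM in Treg cells, and to 25035 and 19726 CPM in other T cells. The ratios of the 9 genes are therefore also given for low-mixture cells, those with fewer than 20 macrophage UMIs and no UMI of the tumour-cell gene Rhox5; there the macrophage sum was 330 against 269 CPM in CD8 T cells. A further split runs through the Ifnar1-SA library alone: 143 of its CD8 T cells had Y-linked transcripts without Xist and 582 had Xist without Y-linked transcripts, while WT CD8 T cells divided 1 against 1121. The labels do not give the sex of the animals or the origin of the Y-linked cells, which are called Ifnar1-SA after their library. Values for Xist-only cells of both libraries are given beside ratios of the 9 genes. Shares of cells, CD8 subsets and the split by Tcf7 are given for all droplets only.

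In CD8 T cells, 8 of the 9 genes had higher levels in the Ifnar1-SA library, by 1.36- to 1.90-fold. The ninth, Dapl1, was level at 1.02-fold. Of the 5183 genes counted below, 53.1% were higher. The largest ratios were those of Bach2 and Lef1. Genes with a mean of at least 20 CPM and 30 UMIs over both libraries were counted against a 1.5-fold mark, and 4 of the 9 reached that level (Klf2, Il7r, Ccr7 and Slamf6). Of these 4, 1 (Klf2) lay past 1.5-fold higher and none past 1.5-fold lower, while of all 5183 genes that reached the level 5.61% lay past 1.5-fold higher and 2.26% past 1.5-fold lower. The median log2 ratio of the 4 was 0.53, against 0.02 over all 5183 genes, of which the middle 90% ran between -0.42 and 0.62. Of all 9, with no filter on level, 3 lay past 1.5-fold higher (Bach2, Lef1 and Klf2), where 14.2% of all 14520 genes lay under the same setting. In bulk sums such as these, fewer cells of a type and less RNA per cell cannot be told apart.

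**Figure D1:**
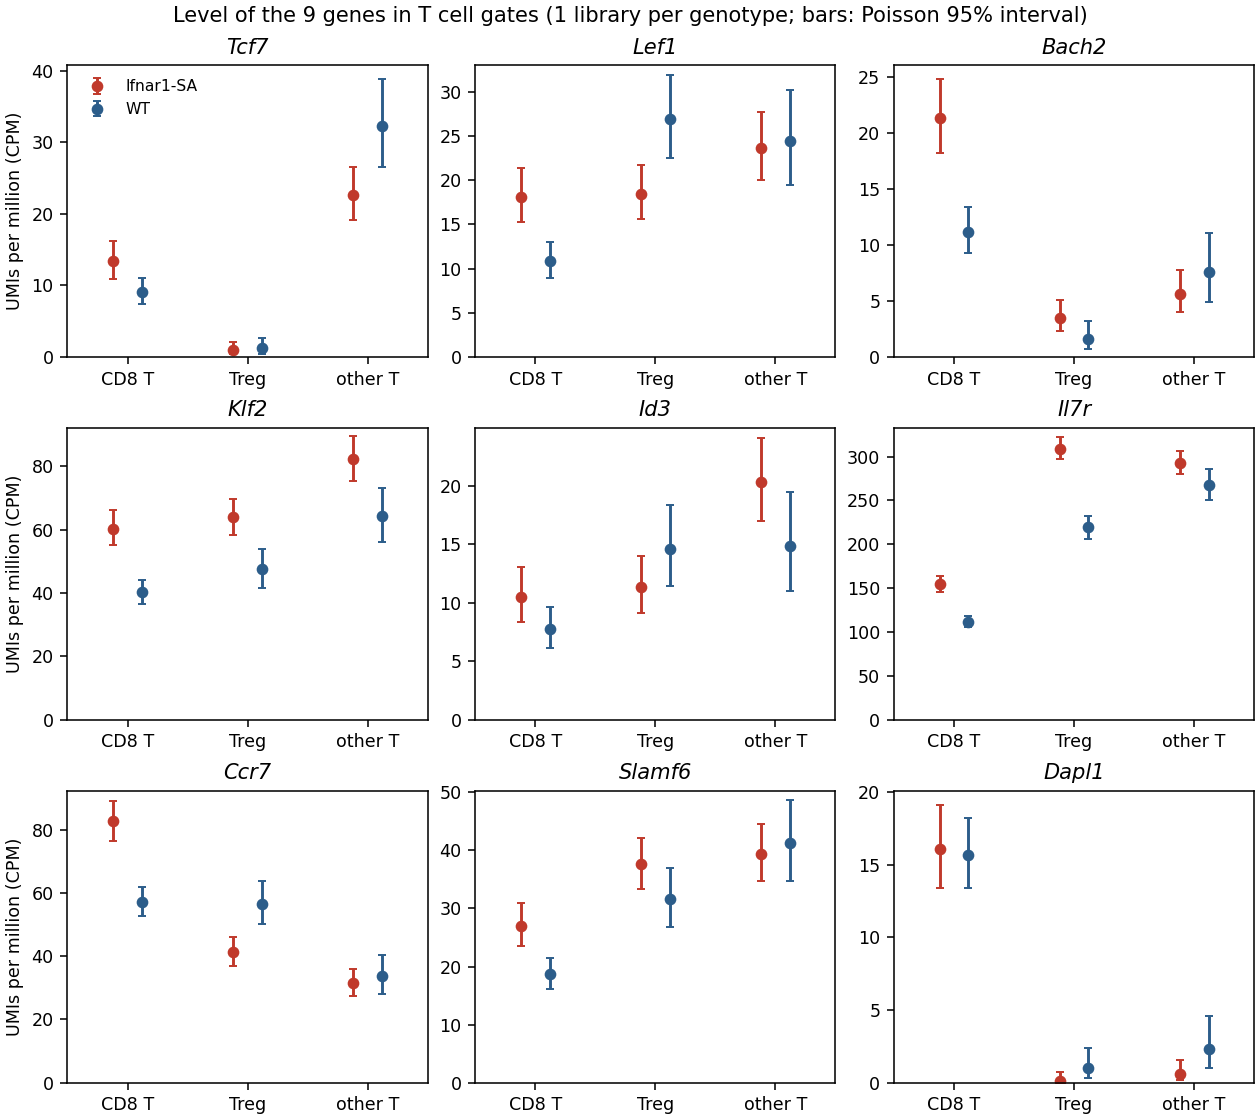
Levels of the 9 genes in CPM (linear axes from 0, 1 panel per gene) in CD8 T, Treg and other T cells, the Ifnar1-SA library left of the WT library. Points are 1 library each with exact Poisson 95% intervals; Bach2 and Lef1 stand highest over WT in the Ifnar1-SA CD8 T cells, while Tcf7 stands lower than WT in Ifnar1-SA other T cells.

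The 2 genes with the largest ratios in CD8 T cells are shown with the 250 bases before an annotated start, taken from RefSeq (GRCm38.p6), because the letters bound by STAT, TCF/LEF and KLF factors can be looked up there. In the Bach2 window (chr4:32417185-32417434, plus strand) the capitals mark the STAT-type letters TTCNNNGAA, 140 bases before the start, and the TCF/LEF-type letters CTTTGA read on the other strand, 93 bases before it. In the Lef1 window (chr3:131110047-131110296, plus strand) the capitals mark the KLF-type letters CACCC on either strand, 200, 157 and 75 bases before the start.
Bach2: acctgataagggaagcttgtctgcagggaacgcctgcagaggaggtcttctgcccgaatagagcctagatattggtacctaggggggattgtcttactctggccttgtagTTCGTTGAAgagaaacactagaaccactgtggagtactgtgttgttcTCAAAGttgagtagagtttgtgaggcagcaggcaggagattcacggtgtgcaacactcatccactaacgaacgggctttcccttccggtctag
Lef1: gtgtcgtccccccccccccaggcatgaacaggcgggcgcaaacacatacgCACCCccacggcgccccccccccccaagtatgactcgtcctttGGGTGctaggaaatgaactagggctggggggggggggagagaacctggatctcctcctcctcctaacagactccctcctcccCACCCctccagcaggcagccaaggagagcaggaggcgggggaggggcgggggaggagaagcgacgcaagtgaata
The Bach2 window lies inside the gene's span and overlaps no exon; all 250 bases of the Lef1 window lie in an exon of an antisense noncoding gene. RefSeq gave 12 windows for 8 of the 9 genes, all except Ccr7, and the first listed window of each gene is shown. Another Lef1 window, from chr3:131156044, holds 2 CTTTGA matches, 180 and 120 bases before its start. The bases that follow the Lef1 start shown were not found in a GENCODE M21 transcript of Lef1, so distances refer to the RefSeq start only. Searched on both strands, TTCNNNGAA occurs in 7.02% of all 32851 mouse windows of this length, CTTTGA in 13.8% and CACCC in 52.0%. The interferon-response letters GAAA, any 2 letters, then GAAA occur in 2.98% of all windows and in 0 of these 12. Such matches are letters and not measured binding.

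Tcf7 (ENSMUSG00000000782, chr11:52252371-52283014, minus strand, in mm10 and GENCODE M21 as are all positions of genes here) encodes TCF-1. It had 13.4 CPM (10.9 to 16.2) in Ifnar1-SA and 9.05 CPM (7.34 to 11.0) in WT CD8 T cells, from 104 and 97 UMIs. The 2 intervals touch by a narrow margin, and the log2 ratio (Ifnar1-SA over WT, as throughout) was 0.56 (0.15 to 0.98). In low-mixture cells the ratio was 0.89 (0.40 to 1.37). In Xist-only cells it was also 0.89, whereas the Y-linked Ifnar1-SA cells stood at -0.42 (-1.90 to 0.76) against all WT cells.

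Lef1 (ENSMUSG00000027985, chr3:131110471-131224356, plus strand), which encodes the partner factor LEF-1, had 18.1 CPM (15.3 to 21.4) in Ifnar1-SA and 10.8 CPM (8.94 to 13.0) in WT CD8 T cells. These intervals do not overlap. The log2 ratio was 0.74 (0.38 to 1.11), 1.11 (0.69 to 1.54) in low-mixture cells and 0.70 in Xist-only cells. Its antisense gene Lef1os1 had 8 and 7 UMIs in the Ifnar1-SA and WT CD8 T cells.

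Bach2 (ENSMUSG00000040270, chr4:32238804-32586108, plus strand) encodes a repressor that holds back effector programmes in T cells. It had 21.3 CPM (18.2 to 24.8) in Ifnar1-SA and 11.2 CPM (9.28 to 13.4) in WT CD8 T cells, with intervals well apart. Its log2 ratio of 0.93 (0.58 to 1.28) was the highest of the 9, and it was 1.09 (0.71 to 1.48) in low-mixture, 1.05 in Xist-only and 1.34 (0.65 to 1.97) in Y-linked Ifnar1-SA cells. Its antisense gene Bach2os had 14 and 16 UMIs; the labels do not say whether counting used strand.

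Klf2 (ENSMUSG00000055148, chr8:72319033-72321656, plus strand) encodes a quiescence factor that drives S1pr1, a gene of T cell trafficking. It had 60.4 CPM (55.1 to 66.1) in Ifnar1-SA and 40.2 CPM (36.5 to 44.2) in WT CD8 T cells, a log2 ratio of 0.59 (0.39 to 0.78) that lies on the 1.5-fold mark. Macrophages carry Klf2 too, at 96.5 CPM in the Ifnar1-SA and 85.5 CPM in the WT library. The ratio was 0.46 (0.17 to 0.75) in low-mixture and 0.75 in Xist-only cells, and it turned to -0.63 (-1.30 to -0.02) in the Y-linked Ifnar1-SA cells against all WT cells.

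Id3 (ENSMUSG00000007872, chr4:136143497-136145755, plus strand), an inhibitor of E proteins that marks memory precursors, had 10.5 CPM (8.38 to 13.1) in Ifnar1-SA and 7.74 CPM (6.17 to 9.60) in WT CD8 T cells. The intervals overlap, and the log2 ratio was 0.44 (-0.01 to 0.90). The 5 cells with the most Id3 UMIs held 47.6% of its UMIs in the Ifnar1-SA and 57.8% in the WT library, so these levels rest on few droplets. Low-mixture cells kept 25 and 17 of its 82 and 83 UMIs. The ratio was 0.52 in Xist-only cells and -1.19 (-3.50 to 0.41) in Y-linked Ifnar1-SA cells against all WT cells.

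Il7r (ENSMUSG00000003882, chr15:9505788-9530176, minus strand) encodes the receptor chain for IL-7. It had 154 CPM (146 to 163) in Ifnar1-SA and 112 CPM (106 to 118) in WT CD8 T cells. The libraries are well apart on counting error, with a log2 ratio of 0.46 (0.35 to 0.58), 0.56 (0.43 to 0.70) in low-mixture cells and 0.46 in Xist-only cells. With every cell given equal weight the ratio was 0.29, and without cycling cells it was 0.26.

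Ccr7 (ENSMUSG00000037944, chr11:99144196-99155077, minus strand) had 82.6 CPM (76.4 to 89.3) in Ifnar1-SA and 57.1 CPM (52.7 to 61.8) in WT CD8 T cells, with no overlap. Its log2 ratio was 0.53 (0.37 to 0.69), 0.68 (0.50 to 0.86) in low-mixture and 0.63 in Xist-only cells. Slamf6 (ENSMUSG00000015314, chr1:171917515-171953170, plus strand), which encodes Ly108, had 27.0 CPM (23.5 to 30.9) in Ifnar1-SA and 18.7 CPM (16.2 to 21.4) in WT CD8 T cells. The Slamf6 log2 ratio was 0.53 (0.25 to 0.82) over all CD8 T cells, 1.02 (0.65 to 1.39) in low-mixture and 0.50 in Xist-only cells. All 3 receptor genes were thus higher in the Ifnar1-SA CD8 T cells with and without the mixed droplets.

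Dapl1 (ENSMUSG00000026989, chr2:59484653-59505020, plus strand), a gene used as a marker of naive and stem-like CD8 T cells, had 16.1 CPM (13.4 to 19.1) in Ifnar1-SA and 15.7 CPM (13.4 to 18.2) in WT CD8 T cells. The levels were nearly equal, with a log2 ratio of 0.03 (-0.31 to 0.38). The 5 highest cells held 36.0% of its Ifnar1-SA and 48.2% of its WT UMIs. Xist-only cells gave -0.03, weighting cells equally gave 0.54, and the 143 Y-linked Ifnar1-SA cells gave 1.01 (0.38 to 1.60) against all WT cells, so the equality holds for the sum and not for every way of taking it.

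**Figure D2:**
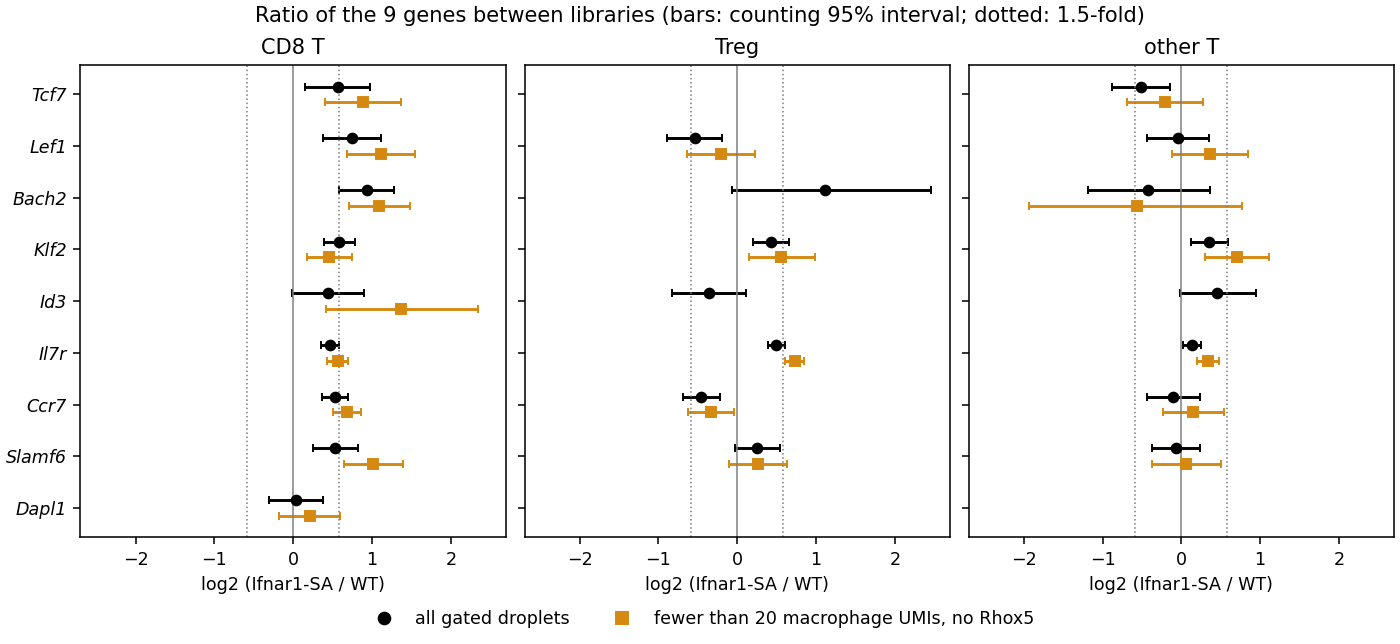
Log2 ratio of Ifnar1-SA over WT for each of the 9 genes in the 3 T cell gates, in all cells and in low-mixture cells, with exact 95% intervals; 0 is no difference, and ratios from too few UMIs are not drawn. In CD8 T cells 8 genes lie right of 0 in both sets of cells and Dapl1 lies near 0, while Lef1 and Ccr7 in Treg and Tcf7 in other T cells lie left of it.

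To set shares of cells side by side at equal depth, each cell was thinned to 2000 UMIs, which left out 66 of the Ifnar1-SA and 87 of the WT CD8 T cells. An Il7r UMI was then seen in 26.7% (23.7 to 29.9) of Ifnar1-SA and 21.8% (19.4 to 24.4) of WT CD8 T cells, and in 51.8% and 43.8% before thinning. Macrophage-gated cells without T transcripts, whose medians of 9360 and 11090 UMIs exceed those of CD8 T cells (6083 and 6663), showed it in 5.37% and 3.32% after thinning. Ccr7 was seen in 9.55% (7.62 to 11.8) of Ifnar1-SA and 6.09% (4.73 to 7.69) of WT CD8 T cells after thinning and in 18.0% and 12.5% before, against 0.655% and 0.249% in macrophages. Both receptors were therefore seen in a larger share of CD8 T cells than of macrophages, and the point values were higher in the Ifnar1-SA library, with library intervals that overlap.

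Bach2 was seen in 5.02% (3.62 to 6.75) of Ifnar1-SA and 2.81% (1.90 to 3.99) of WT thinned CD8 T cells, and in 13.8% and 8.57% before thinning. Macrophages showed it in 0.524% and 1.58%. Lef1 was seen in 3.79% (2.59 to 5.34) and 2.34% (1.52 to 3.44) after thinning and in 12.1% and 7.71% before; in macrophages the share was 0.197% in the Ifnar1-SA library and 0 of 1205 cells in the WT library, which allows up to 0.249%. For these 2 factors too the point values are higher in the Ifnar1-SA library, with intervals that overlap. Tcf7 was seen in 2.82% (1.79 to 4.19) and 2.43% (1.60 to 3.55) after thinning and in 8.49% and 5.89% before, against 0 of 1526 Ifnar1-SA macrophages, which allows up to 0.197%, and 0.166% of WT macrophages. Dapl1 was seen in 1.96% and 1.87% after thinning and in 4.30% and 3.72% before, and in no macrophage. At this depth no difference between the libraries was detectable in the Tcf7 and Dapl1 shares.

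For Klf2 the shares in CD8 T cells were lower than those of macrophages, with intervals apart in both libraries. The Id3 shares were also lower, with intervals apart in WT only. Slamf6 shares were near those of macrophages, with overlapping intervals. No difference between the libraries was read from the shares of these genes. Klf2 was seen in 7.83% of Ifnar1-SA and 5.62% of WT thinned CD8 T cells against 13.0% and 11.95% of macrophages. The Id3 shares were 2.20% and 1.12%, against 3.08% and 3.40%. Slamf6 stood at 4.77% and 3.65%, against 4.33% and 6.14% in macrophages, over them in Ifnar1-SA and under them in WT. In low-mixture CD8 T cells, where macrophage transcripts were few, Klf2 kept 40.4 CPM in Ifnar1-SA and 29.4 CPM in WT, Slamf6 29.4 and 14.5 CPM, and Id3 5.52 and 2.14 CPM.

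Several of the 9 genes seen in 1 cell at once were uncommon. At least 3 of them were seen in 3.55% (2.39 to 5.06) of Ifnar1-SA and 1.69% (upper limit 2.65) of WT thinned CD8 T cells, and the intervals overlap. None of the 9 was seen in 53.1% of Ifnar1-SA and 62.0% of WT CD8 T cells. In Treg cells at least 3 were seen in 1.96% and 2.75%, and in other T cells in 4.90% and 5.36%.

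In Treg cells the 9 genes were divided: Il7r and Klf2 were higher in the Ifnar1-SA library, and Lef1 and Ccr7 were lower. Of the 9, 5 reached the level for counting (Lef1, Klf2, Il7r, Ccr7 and Slamf6). None of these lay past 1.5-fold higher, where 3.92% of all 5356 genes lay, and none past 1.5-fold lower, where 1.81% lay. Their median log2 ratio was 0.25, against -0.01 over all genes. Treg cells differed between the libraries in cycling cells, with 26.0% in Ifnar1-SA and 35.4% in WT.

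Il7r in Treg cells had 309 CPM (297 to 322) in Ifnar1-SA and 219 CPM (206 to 233) in WT. The log2 ratio of 0.50 (0.39 to 0.60) was 0.73 (0.61 to 0.85) in low-mixture cells and 0.57 in Xist-only cells. An Il7r UMI was seen in 45.1% (41.4 to 48.8) of Ifnar1-SA and 35.8% (31.3 to 40.5) of WT thinned Treg cells, and in 73.5% and 64.8% before thinning. Level and share of cells were both higher in Ifnar1-SA Treg cells, with intervals apart.

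Lef1 in Treg cells had 18.5 CPM (15.6 to 21.8) in Ifnar1-SA and 26.9 CPM (22.5 to 31.9) in WT, a log2 ratio of -0.54 (-0.89 to -0.19). The interval reached past 0 in low-mixture cells, at -0.21 (-0.64 to 0.23), and without cycling cells, at -0.18 (-0.71 to 0.37). In Xist-only cells the Lef1 ratio was -0.59. Ccr7 had 41.2 CPM (36.8 to 46.0) in Ifnar1-SA and 56.6 CPM (50.2 to 63.7) in WT Treg cells, a log2 ratio of -0.46 (-0.69 to -0.22). For Ccr7 the lower level held in low-mixture cells, at -0.33 (-0.63 to -0.04), and in Xist-only cells, at -0.45. The thinned shares of cells with a UMI were 4.05% against 6.65% for Lef1 and 6.70% against 7.34% for Ccr7.

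Klf2 in Treg cells had 64.0 CPM (58.5 to 69.9) in Ifnar1-SA and 47.5 CPM (41.7 to 54.0) in WT, a log2 ratio of 0.43 (0.20 to 0.66), although 5 WT cells held 45.1% of the WT UMIs. Leaving out the 5 highest cells per library gave a ratio of 1.04, low-mixture cells 0.56 and Xist-only cells 0.47. Slamf6 had 37.6 CPM (33.4 to 42.2) in Ifnar1-SA and 31.6 CPM (26.8 to 36.9) in WT, with overlapping intervals. The remaining genes were scarce in Treg cells: Tcf7 had 8 UMIs in Ifnar1-SA and 6 in WT, Bach2 had 27 and 8, and Dapl1 had 1 and 5. Id3 had 11.4 CPM in Ifnar1-SA and 14.6 CPM in WT, with 5 cells holding 43.2% and 69.4% of the UMIs.

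In the other T cells Tcf7 was lower and Klf2 and Il7r were higher in the Ifnar1-SA library, and Lef1, Ccr7 and Slamf6 were close. Of the 6 genes that reached the level for counting, none lay past 1.5-fold higher, where 5.25% of all 5427 genes lay, and none past 1.5-fold lower, where 3.08% lay. Their median log2 ratio was -0.06, against -0.02 over all genes. Droplets rich in macrophage transcripts were 42.2% of the Ifnar1-SA and 23.5% of the WT cells here, and their part in these values was not tested beyond leaving them out.

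Tcf7 in other T cells had 22.6 CPM (19.1 to 26.5) in Ifnar1-SA and 32.3 CPM (26.6 to 38.9) in WT, a log2 ratio of -0.52 (-0.88 to -0.15). It was -0.50 (-0.90 to -0.10) in Xist-only cells and -0.21 (-0.69 to 0.28) in low-mixture cells, where the interval includes 0. A Tcf7 UMI was seen in 5.45% (3.91 to 7.38) of Ifnar1-SA and 6.38% (4.17 to 9.27) of WT thinned cells, a difference not detectable at this depth.

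Klf2 in other T cells had 82.2 CPM (75.5 to 89.5) in Ifnar1-SA and 64.3 CPM (56.1 to 73.3) in WT, with intervals apart; the log2 ratio was 0.36 (0.13 to 0.59), 0.70 (0.30 to 1.12) in low-mixture cells and 0.27 in Xist-only cells. Il7r had 293 CPM in Ifnar1-SA and 268 CPM in WT, a log2 ratio of 0.13 (0.02 to 0.24), and 0.072 in Xist-only cells. In low-mixture cells Il7r had 582 against 460 CPM, a ratio of 0.34 (0.20 to 0.48). Klf2 and Il7r were thus further apart once the mixed droplets were left out.

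Over all other T cells Lef1, Ccr7 and Slamf6 were close. They had 23.7 against 24.4 CPM, 31.4 against 33.7 CPM and 39.4 against 41.3 CPM in Ifnar1-SA and WT. In low-mixture cells the log2 ratios were above 0 with intervals that include 0. They were 0.36 (-0.11 to 0.85) for Lef1, 0.15 (-0.24 to 0.54) for Ccr7 and 0.06 (-0.38 to 0.50) for Slamf6. Id3 had 20.3 and 14.8 CPM, a log2 ratio of 0.45 (-0.02 to 0.95), but only 10 and 2 of its UMIs were in low-mixture cells. Bach2 had 5.65 CPM in Ifnar1-SA and 7.56 CPM in WT, from 37 and 26 UMIs. Dapl1 had 4 and 8 UMIs.

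Over all droplets, mixed ones included, the order of the 3 T cell gates differed from gene to gene. Tcf7 was highest in other T, next in CD8 T and lowest in Treg cells in both libraries, with no overlap between neighbours. Bach2 and Dapl1 were highest in CD8 T cells, although for Bach2 the WT intervals of CD8 T and other T cells overlap. Il7r was lowest in CD8 T cells in both libraries; other T and Treg cells stood at 293 and 309 CPM in Ifnar1-SA, where their intervals overlap, and at 268 and 219 CPM in WT. Lef1 kept no order over all Ifnar1-SA droplets, where all 3 intervals overlap (18.1, 18.5 and 23.7 CPM). In WT, CD8 T cells were lowest in Lef1 at 10.8 CPM. Low-mixture Ifnar1-SA cells did show an order, with Lef1 at 52.1 CPM in other T, 27.0 CPM in Treg and 23.2 CPM in CD8 T cells. Il7r stood at 582 CPM in low-mixture Ifnar1-SA other T and 470 CPM in low-mixture Ifnar1-SA Treg cells. Ccr7 was highest in CD8 T cells at 82.6 CPM in the Ifnar1-SA library, whereas WT CD8 T and Treg cells stood side by side at 57.1 and 56.6 CPM.

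**Figure D3:**
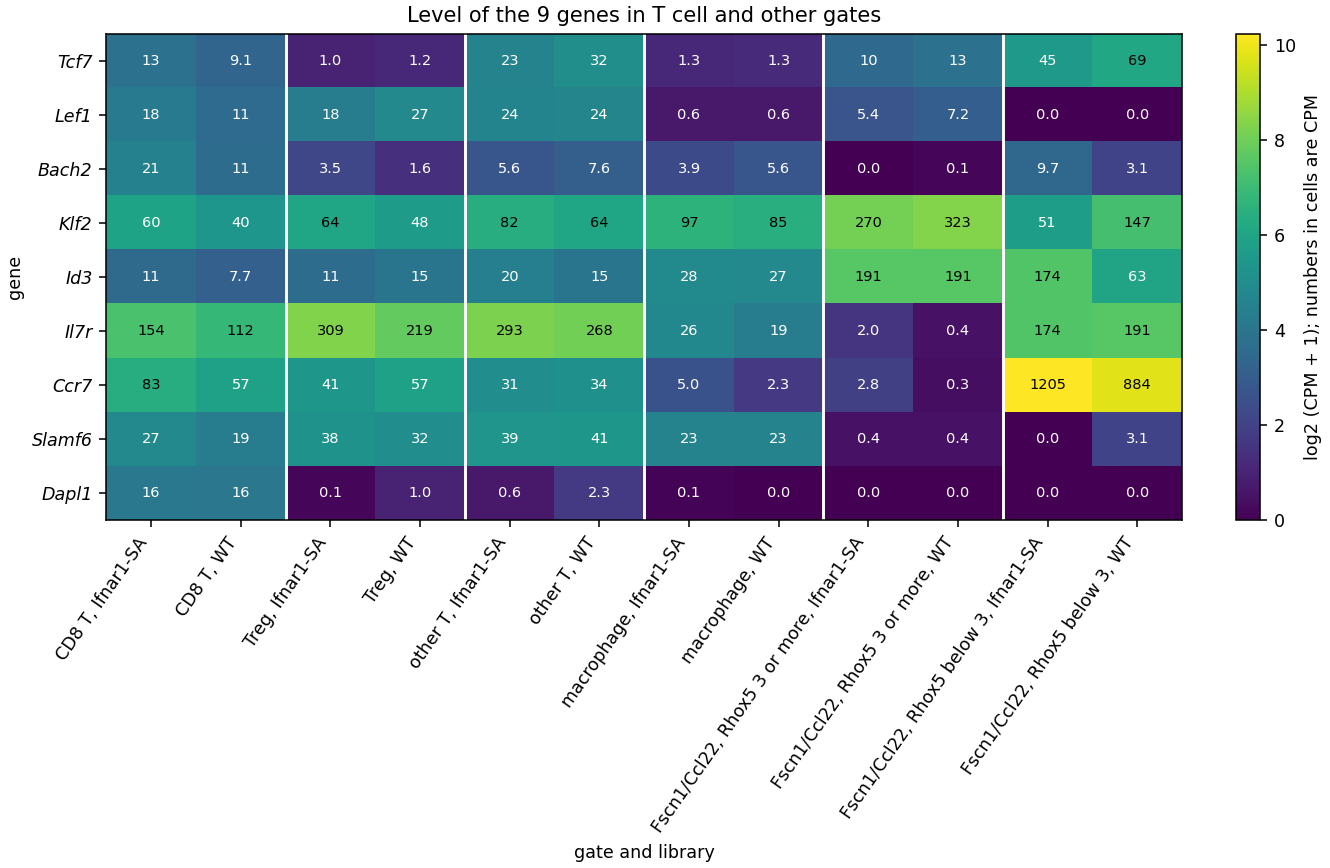
Levels of the 9 genes (rows of a heat map, colour as log2 of CPM + 1, CPM printed) in the T cell gates, macrophage-gated cells and the Fscn1 and Ccl22 gate split by Rhox5, the Ifnar1-SA library left of the WT library. Macrophages carry Klf2, Id3, Slamf6 and Il7r, and Ccr7 stands highest in the gated cells with few Rhox5 transcripts.

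Cells without T transcripts showed which of the 9 genes are not particular to T cells in these tumours. The macrophage gate (at least 5 UMIs of the C1q genes, 1619 Ifnar1-SA and 1249 WT cells) had Id3 at 28.3 and 27.0 CPM, Slamf6 at 22.7 and 22.9 CPM, and Il7r at 26.4 and 19.0 CPM. Tcf7 had 1.26 and 1.34 CPM there and Lef1 0.630 and 0.637 CPM, lower than in CD8 T and other T cells. Dapl1 had 1 and 0 UMIs.

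The gate on Fscn1 and Ccl22, genes of migratory dendritic cells, went against its name: 133 of its 183 Ifnar1-SA and 118 of its 155 WT cells had at least 3 Rhox5 UMIs, with medians of 54633 and 52450 UMIs and with Ptprc, the pan-leukocyte gene, at 6.51 and 4.12 CPM. Klf2 stood at 270.3 and 323 CPM in those cells. In the remaining 50 Ifnar1-SA and 37 WT cells, Ccr7 had 1205 and 884 CPM and Il7r 174 and 191 CPM. Tcf7 was seen there at 45.0 and 69.0 CPM, while Lef1 had no UMI in either library.

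The CD8 T gate was split to see whether its make-up moves with the levels. Cycling cells were 187 (21.2%) of the Ifnar1-SA and 345 (29.9%) of the WT CD8 T cells. Non-cycling cells with at least 2 UMIs of Xcl1, a chemokine of memory-like CD8 T cells, were 193 (21.9%) and 138 (11.9%). Non-cycling Xcl1-low cells were 503 (57.0%) and 672 (58.2%). Ccr7 was highest in the Xcl1-positive cells, at 179.6 CPM in Ifnar1-SA and 159.6 CPM in WT, against 89.3 and 57.0 CPM in cycling and 33.3 and 28.2 CPM in Xcl1-low cells.

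Within the 3 subsets 8 of the 9 genes kept a log2 ratio above 0 in each, and Dapl1 did not. The intervals of Tcf7 and Id3 include 0 in every subset, and those of Klf2 and Il7r exclude it. Intervals also include 0 for Ccr7 in both non-cycling subsets and for Slamf6 in cycling and Xcl1-positive cells. The same holds for Bach2 in Xcl1-low and Lef1 in cycling cells. No share of all genes above 0 was taken within the subsets. Bach2 had 50.8 CPM in Ifnar1-SA and 22.0 CPM in WT Xcl1-positive cells, a ratio of 1.21 (0.55 to 1.91); it was 0.78 (0.14 to 1.42) in cycling and 0.25 in Xcl1-low cells. Lef1 had 25 UMIs in Ifnar1-SA and 5 in WT Xcl1-positive cells, a ratio of 1.97, with 0.50 in cycling and 0.83 in Xcl1-low cells. The Ccr7 ratio was 0.65 in cycling cells, 0.17 in Xcl1-positive and 0.24 in Xcl1-low cells, smaller in both non-cycling subsets than the 0.53 over the gate. The Il7r ratios were 0.63, 0.49 and 0.26 in the same order, and those of Tcf7 were 0.25, 0.32 and 0.45.

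Dapl1 split by subset. It was lower in Ifnar1-SA Xcl1-positive cells, with 32.4 CPM against 51.5 CPM in WT, a log2 ratio of -0.67 (-1.24 to -0.10). In Xcl1-low cells it was higher, with 14.6 CPM in Ifnar1-SA and 7.65 CPM in WT, a ratio of 0.93 (0.26 to 1.62). In cycling cells the ratio was -0.59 (-1.28 to 0.06). The equal Dapl1 level of the whole gate is thus the sum of subsets that differ in sign.

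**Figure D4:**
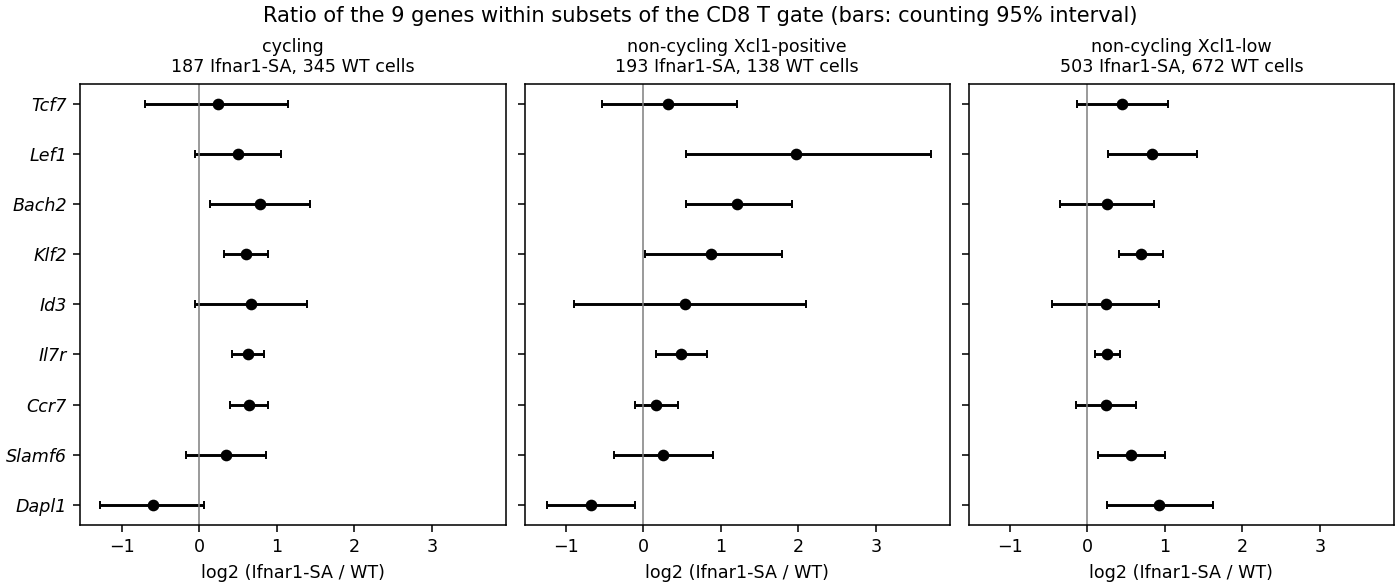
Log2 ratio of Ifnar1-SA over WT of the 9 genes in cycling, non-cycling Xcl1-positive and non-cycling Xcl1-low CD8 T cells, with exact 95% intervals and 0 as no difference. Bach2 and Lef1 lie farthest right in Xcl1-positive cells, at 1.21 and 1.97, and Dapl1 lies at -0.67 in Xcl1-positive and at 0.93 in Xcl1-low cells.

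CD8 T cells with a Tcf7 UMI were set beside those without to see what travels with it in single cells; this split on all counts was chosen after seeing that the thinned counts leave 23 Ifnar1-SA and 26 WT cells with Tcf7. There were 72 against 745 such cells in the Ifnar1-SA and 67 against 1001 in the WT library, with medians of 6786.5 against 6413 and 6963 against 7179 UMIs, and the shares are of thinned cells. Cells are not replicates, so these are descriptions of each library.

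Of the 8 other genes of the set, 7 had higher shares in the cells with Tcf7 in both libraries. No share over all genes was taken for this split, here or for the effector genes below. Id3 counts among the 7 on 2 of 72 Ifnar1-SA and 1 of 67 WT cells with Tcf7. Bach2 in Ifnar1-SA counts on 5.56% against 4.97%. Il7r was seen in 44.4% (32.7 to 56.6) of Ifnar1-SA cells with Tcf7 and 25.0% (21.9 to 28.2) without, and in 28.4% and 21.4% of WT cells. Dapl1 was seen in 8.33% (3.12 to 17.3) of Ifnar1-SA cells with Tcf7 and 1.34% (0.646 to 2.45) without, and in 10.4% (4.30 to 20.3) and 1.30% (0.693 to 2.21) of WT cells. Dapl1 is the member whose intervals stand apart in both libraries. Ccr7 was seen in 19.4% against 8.59% of Ifnar1-SA and 8.96% against 5.89% of WT cells, and Slamf6 in 11.1% against 4.16% and 10.4% against 3.20%. Klf2 was seen in 12.5% against 7.38% of Ifnar1-SA and 8.96% against 5.39% of WT cells, and the intervals of Klf2, Bach2 and Id3 overlap in both libraries. Lef1 gave no common direction, with 1.39% against 4.03% in Ifnar1-SA and 4.48% against 2.20% in WT cells.

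Of the 15 effector and terminal genes, 11 had lower shares in the cells with Tcf7 in both libraries, 1 (Irf4) had higher shares in both, and 3 (Gzma, Zeb2 and Batf) differed in direction. Gzmb, the gene of granzyme B, was seen in 26.4% (16.7 to 38.1) of Ifnar1-SA cells with Tcf7 and 52.6% (49.0 to 56.3) without, and in 25.4% (15.5 to 37.5) and 51.0% of WT cells. Prf1, which encodes perforin, was seen in 4.17% against 18.8% of Ifnar1-SA and 4.48% against 17.1% of WT cells. Entpd1, the gene of the exhaustion marker CD39, was seen in 1.39% against 8.99% and 1.49% against 11.0%. The intervals stand apart in both libraries for Gzmb and Prf1, and in WT for Entpd1. Gzma, by contrast, was seen in 0 of 72 cells with Tcf7 (upper limit 4.99%) and 7.65% of those without in the Ifnar1-SA library, and in 13.4% and 5.69% in the WT library. The macrophage gene C1qa was seen in 23.6% against 24.4% of Ifnar1-SA and 20.9% against 17.9% of WT cells, so mixed droplets were about as common on both sides.

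**Figure D5:**
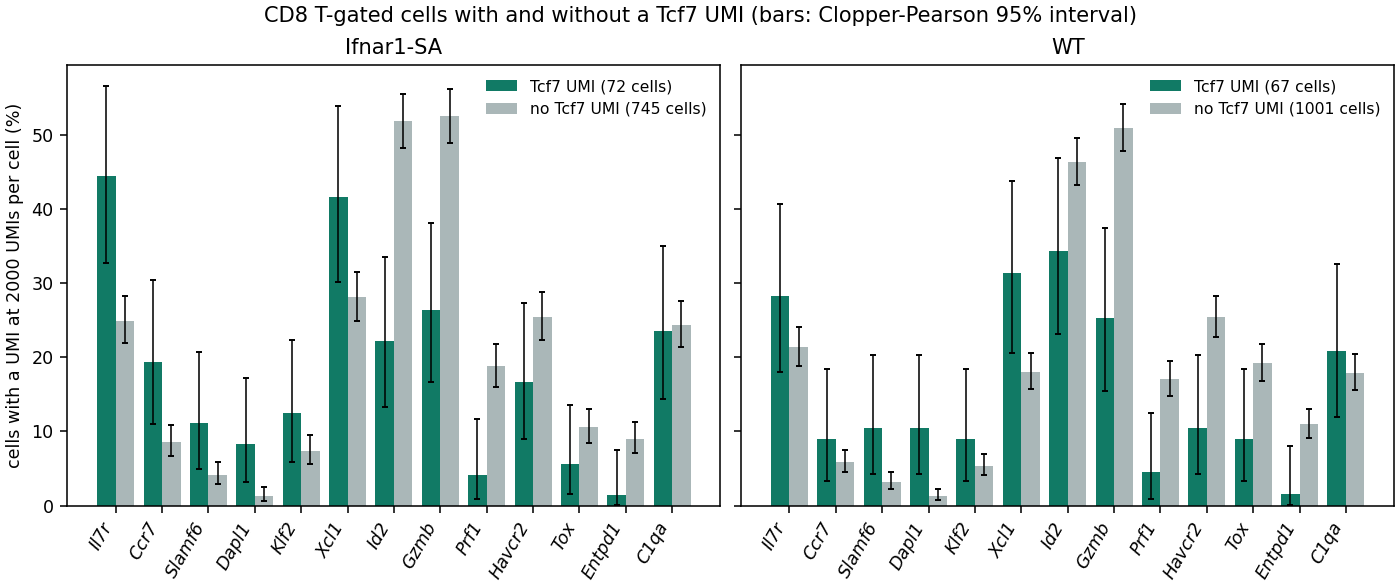
Bars give the percent of thinned CD8 T cells with a UMI of each gene, in cells with and without a Tcf7 UMI, in the Ifnar1-SA library left of the WT library, with exact 95% intervals. Gzmb is seen in 26.4% and 25.4% of cells with Tcf7 against 52.6% and 51.0% without, and Il7r and Dapl1 are seen more often with Tcf7.

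The same split in other T cells gave 90 cells with Tcf7 and 625 without in the Ifnar1-SA, and 63 and 329 in the WT library. Gzmb was seen in 4.44% against 37.1% of Ifnar1-SA and 3.17% against 32.2% of WT cells, and Il2ra in 3.33% against 27.8% and 3.17% against 27.4%. Lef1 went with Tcf7 here, in 13.3% (7.08 to 22.1) against 4.96% (3.39 to 6.97) of Ifnar1-SA and 14.3% against 3.65% of WT cells. Il7r was seen in 56.7% (45.8 to 67.1) of Ifnar1-SA cells with Tcf7 and 39.5% (35.7 to 43.5) without, and in 39.7% (27.6 to 52.8) and 34.7% (29.5 to 40.1) of WT cells, where the intervals overlap.

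The 4 gene lists of related function place the 9 genes among their neighbours. Highest and lowest refer throughout to the genes that reached the level for counting, and values are log2 ratios of all cells in a gate unless stated. Of 20 other genes of naive and quiescent T cells, 12 reached the level for counting in CD8 T cells, 9 of them higher in Ifnar1-SA and 3 lower. Of all 5183 genes counted in this gate, 53.1% were higher. No share of all genes above 0 was taken for low-mixture cells. Past 1.5-fold were 2 higher, against 5.61% of all genes, and 1 lower, against 2.26%, and the median was 0.15. Rgs10, a regulator of G protein signalling, had 161 CPM in Ifnar1-SA and 93.0 CPM in WT CD8 T cells, a log2 ratio of 0.79, and Ly6c2, a surface protein of memory T cells, had 0.65. Foxp1, a quiescence factor, stood at 0.52. The survival gene Bcl2 was the lowest of the list, with 98.8 CPM in Ifnar1-SA and 189.9 CPM in WT, a ratio of -0.94, followed by Foxo1, which encodes an activator of Klf2 and Il7r, at -0.53 and Actn1, which encodes an actin cross-linker, at -0.47. In low-mixture cells 9 were again higher and 3 lower, with a median of 0.24, but the counts past 1.5-fold were not the same. There Rgs10 stood at 0.56, short of the 1.5-fold mark, and Actn1 at -0.72, past it.

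In Treg cells 11 genes of this list were counted and all 11 were at or above 0, with Ly6c2 at 1.11 and the costimulatory receptor gene Cd27 at 0.64 as the highest. Of all 5356 genes, 47.2% lay above 0. All 11 were also higher in low-mixture Treg cells. Ly6c2 stood there at 1.13, but kept only 225 of its 4052 Ifnar1-SA and 88 of its 1200 WT UMIs. The list's lowest values in Treg cells were 0.00 for Foxo1 and 0.10 for Btg1. In other T cells 10 of the 17 counted were higher and 7 lower, where 45.9% of all 5427 genes were higher. Ly6c2 stood at 1.25 and Il6ra at 0.60, but in low-mixture cells Il6ra was at -0.59 and Ly6c2 at 0.54. Actn1 was lowest at -0.85 in all other T cells and at -0.02 in low-mixture cells, and S1pr1, the gene of a receptor for leaving tissue, stood at -0.26.

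Of 13 genes of progenitor and early memory cells, 7 were counted in CD8 T cells, 4 higher and 3 lower, with a median of 0.07. Of all genes in this gate, 53.1% were higher. Past 1.5-fold were 1 higher, against 5.61% of all genes, and 1 lower, against 2.26%. Myb, a factor of stem-like CD8 T cells, stood at 0.59, the early activation gene Cd69 at 0.56 and Xcl1 at 0.49. Gzmk, the gene of granzyme K, had 19.3 CPM in Ifnar1-SA and 44.7 CPM in WT, a log2 ratio of -1.21. Gpr183, a chemotactic receptor gene, stood at -0.36 and Ets1 at -0.16. In Treg and other T cells the medians were -0.09 and -0.40: Cd69 was highest at 0.37 and 0.19, while Xcl1 was at -0.20 and -1.07, Cxcr3 at -0.32 in Treg and Tnfsf8 at -0.77 in other T cells. Ikzf1 stood at 0.00 and 0.03. In low-mixture cells Xcl1 was far lower, at -2.23 (-2.68 to -1.80) in Treg and -2.69 in other T cells, and Ets1 in CD8 T cells was at 0.03. The low-mixture medians were 0.11 in CD8 T, 0.081 in Treg and -0.14 in other T cells.

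Of 20 genes for partners and signalling of the 9, 15 were counted in CD8 T cells, 6 higher and 9 lower, with a median of -0.06. Of all genes in this gate, 53.1% were higher. Tcf4, which encodes an E protein of the kind that Id3 inhibits, stood at 0.74, but at 0.29 (-0.19 to 0.76) in low-mixture cells. The E protein gene Tcf12 stood at 0.42 and Mafg, whose product pairs with BACH2, at 0.17. Lowest were Jak3, the kinase gene of the IL-7 receptor, at -0.25, Stat5b at -0.13 and Hdac1 at -0.12. In low-mixture CD8 T cells 9 of the 15 genes changed sign, to 11 higher and 4 lower with a median of 0.03. Mafg was then at -0.18, Stat5b at 0.04 and Hdac1 at 0.00, so the list gave no steady direction. The medians in Treg and other T cells were -0.08 and -0.14. Tcf4 was highest in both, at 0.73 and 0.67, followed by Tcf12 at 0.21 in Treg and Tle4 at 0.11 in other T cells. Low-mixture cells held few Tcf4 UMIs, 28 and 17 in Treg with a ratio of 0.50 (-0.42 to 1.46) and 18 and 16 in other T cells with -0.14 (-1.19 to 0.93), and Tle4 was at -0.13 in other T cells. Tcf3 at -0.52 and Stat5b at -0.35 were lowest in Treg, and Sh2d1a at -0.68 and Stat5b at -0.49 in other T cells.

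Of 15 effector and terminal genes, 14 were counted in CD8 T cells, 9 higher and 5 lower, with a median of 0.05. Of all genes in this gate, 53.1% were higher. Past 1.5-fold were 2 higher, against 5.61% of all genes, and 1 lower, against 2.26%. Zeb2, a factor of terminal effector cells, stood at 0.86, the IL-2 receptor gene Il2ra at 0.77 and Cx3cr1 at 0.42. Tox, a factor of exhausted cells, had 46.4 CPM in Ifnar1-SA and 104.9 CPM in WT CD8 T cells, a log2 ratio of -1.18, with Gzma at -0.36 and Tbx21 at -0.13. In low-mixture CD8 T cells 11 of the 14 were higher and 3 lower, with a median of 0.16. Tox stood there at -0.96, Il2ra at 0.88, Cx3cr1 at 0.12 (-0.10 to 0.35), Gzma at -0.11 and Tbx21 at 0.06. In Treg cells the median was -0.07, with Zeb2 at 0.82 and Gzmb at 0.62 highest and Gzma at -1.75 and Prdm1 at -0.31 lowest. Low-mixture Treg cells held only 2 Gzma UMIs in Ifnar1-SA and 10 in WT. Prdm1 stood there at -0.06 (-0.32 to 0.20) and Gzmb at 0.85. In other T cells the median was 0.01, with Zeb2 at 0.73 and Gzmb at 0.55 highest and Batf at -0.43 and Id2 at -0.26 lowest. In low-mixture other T cells Gzmb stood at 0.78, and Batf at -0.21 and Id2 at -0.11 had intervals that include 0. Zeb2 stood at 0.85 in low-mixture CD8 T cells, at 1.01 in low-mixture Treg cells and at -0.03 in low-mixture other T cells.

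The genes whose levels ran most like each of the 9 over gates were named by Pearson's r of log2(CPM + 10) over 10 profiles, 5 gates in each library, among 4121 genes. The gates were the T cell gates, the macrophage gate and the whole Fscn1 and Ccl22 gate, most of whose cells carried Rhox5. These profiles share libraries and mixed droplets, so r is a description only. Tcf7 ran closest to Ramp3 (r = 0.88), Hivep2 (0.84) and Fau (0.81), the lowest top values of the set. Lef1 ran closest to Ythdc1 (0.97), Cd82 and Ttc39c, and Bach2 to Klrk1 (0.94), Dnajc15 and Jaml. Il7r ran closest to Trp53inp1 (0.98), Asxl2 and Mxd4, Ccr7 to Brd1 (0.98), Pabpn1 and Zfp207, and Slamf6 to Clec2d (0.99), Zmiz2 and Tgif1. Dapl1 ran closest to Slc17a6 (0.99), Klre1 and Nr4a2. Klf2 ran closest to Lpp, Cyb5r3 and Atxn2, and Id3 to Tfpi, Mcrip1 and Selenof. Both genes were highest in the Fscn1 and Ccl22 gate, with Klf2 at 254 CPM in Ifnar1-SA and 316 CPM in WT. Id3 stood there at 190 and 185 CPM. The part of that gate in their r was not tested.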

How the data were processed

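Single-cell RNA libraries (10x) of tumour-infiltrating immune cells, 1 from Ifnar1-SA and 1 from WT mice, were used as deposited. The deposited matrices hold raw UMI counts per gene and barcode, and the file headers name Cell Ranger 4. Reads were mapped to mm10, per the submitters' processing notes; the labels give no annotation release or counting settings. The 9 genes, the gene lists and the gates were chosen with earlier results of these data known.

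Barcodes were kept at 1000 UMIs, 500 genes and at most 10% mitochondrial UMIs. Counts were summed per gate and library and divided by the gate's total to give CPM, with exact Poisson intervals for levels, exact conditional binomial intervals for log2 ratios of Ifnar1-SA over WT, and exact Clopper-Pearson intervals for shares (95%). Genes with a mean of 20 CPM and 30 UMIs over both libraries were counted. A count of 0 allows up to 3 counts. UMIs and cells are not independent animals, so intervals cover counting error only. Doublets were not removed in the values reported; Scrublet's own threshold marked 1 Ifnar1-SA and 0 WT cells and had not worked, so the alternative removed the 200 and 132 highest scores (0.8% per 1000 cells). Cycling cells had at least 3 UMIs of 6 cell cycle genes. Named genes were all 9 members, from each list the 3 highest and 3 lowest in CD8 T and the 2 highest and 2 lowest in Treg and other T cells, and for each member the 3 genes of highest r. Each value was recomputed under 16 other settings and under 2 more chosen after seeing the data. Scripts were tested on simulated data. Python 3.11.15, numpy 2.4.6, scipy 1.17.1, pandas 2.3.3, scanpy 1.11.5 and matplotlib 3.10.9 were used.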

Additional observations from a re-analysis of the deposited data

Results flagged for a closer look

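For 3 of the 9 genes the ratio lay on opposite sides of 0 in different T cell gates, with intervals that exclude 0 on both sides and at least 30 UMIs; other genes changed sign with an interval that includes 0 or on few UMIs. With 1 library per genotype, none of these differences was tested. Tcf7 had a log2 ratio of Ifnar1-SA over WT of 0.56 in CD8 T and -0.52 in other T cells. Lef1 had 0.74 in CD8 T and -0.54 in Treg cells. Ccr7 had 0.53 in CD8 T and -0.46 in Treg cells. In low-mixture cells the signs were the same, with 0.89 and -0.21 for Tcf7, 1.11 and -0.21 for Lef1, and 0.68 and -0.33 for Ccr7. There the intervals of Tcf7 in other T (-0.69 to 0.28) and Lef1 in Treg cells (-0.64 to 0.23) include 0. Only Ccr7, with -0.63 to -0.04 in Treg cells, still had intervals that exclude 0 on both sides.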

How the results depend on the processing

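No paired analysis was possible because there was 1 library per genotype and the labels share no replicate numbers. Over 27 member values and 470 alternative values, 433 kept their sign, and the median of the counted members in CD8 T cells stayed between 0.45 and 0.72 in all 18 alternatives. The sign of Klf2 in CD8 T cells turned, to -0.63, in the Y-linked Ifnar1-SA cells, as did those of Id3, to -1.19, and Tcf7, to -0.42, whose intervals include 0. The count of CD8 members past 1.5-fold higher was 1; it was 0 with 2000 UMIs per cell, 20% mitochondrial UMIs, 4 UMIs for the T gate or the median of all genes set to 0. It was 2 without cells of both gates, after thinning, without mitochondrial, ribosomal and T receptor genes or in Xist-only cells. It was 3 without macrophage-rich droplets, without Scrublet's highest, with cells weighted equally, in Y-linked cells, with no filter on level or in both sets added later. Of all genes, 5.61% lay past higher as reported. This share was 2.07% without macrophage-rich droplets, 2.31% and 2.36% in the added sets and 14.2% with no filter. Under the other settings it lay between 3.85% and 6.10%. Past 1.5-fold lower was 0, and 1 in Y-linked cells, where 6.39% of all genes lay. In Treg cells the median of 0.25 was -0.20 without macrophage-rich droplets, -0.23 with no filter and -0.067 without droplets of 5 or more macrophage UMIs. The count past higher was 0. It was 1 with 5% mitochondrial UMIs, without macrophage-rich droplets, Scrublet's highest, cycling cells or the 5 highest cells. It was also 1 after thinning, with equal weights, with no filter and in both added sets. Of all genes, 10.7% lay past higher with no filter, and 2.64% to 6.11% under the others of these settings. The count past lower was 0, and 1 without cells of both gates, in Xist-only or Y-linked cells and with no filter. There 1.75%, 1.60%, 13.5% and 14.8% of all genes lay past lower, in the same order. In other T cells the median of -0.06 was 0.44 without macrophage-rich droplets, 0.38 in Y-linked cells, 0.24 in low-mixture cells and 0.31 without droplets of 5 or more macrophage UMIs. The count past higher was 0. It was 3 in Y-linked cells, where 17.2% of all genes lay past it. It was 1 without macrophage-rich droplets, after thinning, without the 5 highest cells and in both added sets. Under those settings 3.56% to 8.51% of all genes lay past it. Past lower it was 0, and 1 with 5% mitochondrial UMIs, 4 UMIs for the T gate, equal weights or no filter. There 2.78%, 2.60%, 4.55% and 17.2% of all genes lay past lower, in the same order. The cause of these shifts was not tested. Counts near the 1.5-fold mark rest on few genes, and genes under about 30 UMIs have wide intervals.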

Other observations

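The 44 Ifnar1-SA other T cells with Y-linked transcripts and no Xist had higher levels of several of the 9 genes: against all WT other T cells Ccr7 had a log2 ratio of 1.74 (1.08 to 2.35), Lef1 1.45 (0.58 to 2.23) and Tcf7 0.75. In this small set 17.2% of all 5514 genes counted lay past 1.5-fold higher, against 5.25% over all other T cells. In the 28 such Treg cells Lef1 stood at 0.46, whereas it was -0.59 in Xist-only Treg cells, and Klf2 stood at -0.78. These cells came from 1 library and no difference was tested.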
